A study of Mus musculus with 18 samples.

Results

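Interferon-stimulated genes are the genes that cells switch on when a type I interferon reaches them, and 41 of them were followed here through tumours with and without p95HER2. The 41 genes were taken by name from the read count table, the Oas genes being left out, and all 41 were found among its 54532 genes. The rule that names them uses no measured value, but the list was drawn up with earlier results of these data known. RNA was sequenced from 18 tumours grown in mice from PB2, a mouse breast cancer cell line. Of these, 10 tumours carried the genotype EV, an abbreviation the labels do not spell out, and 8 had the genotype p95HER2, the carboxy-terminal fragment of HER2 that lacks most of its extracellular part. All mice were kept on the doxycycline diet DOX625, so both groups share that agent. The sex, age and strain of the mice, the promoter that drives p95HER2 and whether each group stems from 1 clone are not stated in the labels used here. The labels do not tie tumours to separate mice, and the spread that p-values measure may therefore be in part technical.

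Type I interferons bind the receptor made of Ifnar1 and Ifnar2, whose kinases Jak1 and Tyk2 activate transcription factors by phosphorylation. The complex that contains Stat2 and Irf9 binds a GAAA-rich element, the interferon-stimulated response element, in the promoters of antiviral genes. In tumours, tumour cells as well as infiltrating immune cells can carry this response, and several of the induced genes encode the sensors and factors that renew it.

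Library totals lay between 35030920 and 38464541 counts for EV and between 32686558 and 34804640 for p95HER2, with no overlap. Erbb2, which encodes HER2, checked the labels: its level was 67.9 ± 4.64 CPM (SD, n = 10) with EV and 158 ± 37.7 CPM (SD, n = 8) with p95HER2, with no overlap. CPM is the count of a gene scaled to its library's normalised total. All 14 epithelial markers examined were detected, Epcam at 638 ± 43.9 CPM in EV (SD, n = 10) and 660 ± 23.9 CPM in p95HER2 tumours (SD, n = 8). Tumour EV 7 was the highest EV tumour for 38 of the 41 genes described below, and tumour p95HER2 4 the lowest p95HER2 tumour for 28. Values that change most without these tumours are given both ways.

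The response element was searched for in the promoters of the members. Upstream sequence from RefSeq (GRCm38.p6, the same build as mm10) was matched for 30 of the 41 members by symbol, in windows of 300 bases that run from 250 before to 50 after the start. The core of the element, taken as 2 copies of GAAA with any 2 bases between them on either strand, was found for 14 of the 30, against 3.99% of the 27025 genes of the table. The longer form, the same core followed by CT, was found for 7 of the 30 and for 0.303% of all genes. The motif TTCNNNGAA, bound by dimers of the STAT family, was found for 6 of the 30, against 9.55% of all genes, and in 2 members it shared bases with a core match. The core was present in 2 of 4 matched members that were lower in p95HER2 tumours by the test given below, and in 12 of 26 that were not called. A match is a description of the letters, not of binding.

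The first pair of sequences belongs to Slfn5 (chr11:82951902-82952101, plus strand) and Trim30a (chr7:104465194-104465393, minus strand), which were lower in p95HER2 tumours. The other sequences are those of Isg15 (chr4:156200819-156201018, minus strand), Ifit1 (chr19:34640689-34640888, plus strand) and Bst2 (chr8:71537473-71537672, minus strand), which did not pass the test. They were chosen after their values were seen, to show repeated copies of the core. Each line gives the 200 bases before the transcription start, 5′ to 3′ on the strand of the gene, with matches to the core in capitals.
Slfn5: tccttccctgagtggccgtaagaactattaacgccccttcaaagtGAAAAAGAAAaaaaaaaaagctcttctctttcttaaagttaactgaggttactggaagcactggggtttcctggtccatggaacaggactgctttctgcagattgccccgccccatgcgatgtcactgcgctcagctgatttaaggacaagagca
Trim30a: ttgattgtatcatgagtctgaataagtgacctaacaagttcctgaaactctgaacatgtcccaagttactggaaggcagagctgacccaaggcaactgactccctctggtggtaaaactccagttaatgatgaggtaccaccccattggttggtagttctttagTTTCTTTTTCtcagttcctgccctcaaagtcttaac
Isg15: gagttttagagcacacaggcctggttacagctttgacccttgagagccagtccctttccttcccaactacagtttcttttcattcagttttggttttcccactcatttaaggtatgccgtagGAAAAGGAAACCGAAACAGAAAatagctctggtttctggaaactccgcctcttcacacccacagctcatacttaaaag
Ifit1: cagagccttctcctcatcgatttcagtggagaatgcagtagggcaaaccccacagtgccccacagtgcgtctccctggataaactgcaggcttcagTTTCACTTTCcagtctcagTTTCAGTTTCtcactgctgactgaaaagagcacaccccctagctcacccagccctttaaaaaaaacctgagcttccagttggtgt
Bst2: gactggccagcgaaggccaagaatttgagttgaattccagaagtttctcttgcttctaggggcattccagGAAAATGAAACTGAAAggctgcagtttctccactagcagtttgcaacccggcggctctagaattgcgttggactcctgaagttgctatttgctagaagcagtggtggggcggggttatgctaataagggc
The Isg15 stretch holds 3 overlapping copies that begin 78 to 66 bases before the start. In Ifit1 2 separate copies begin 104 and 85 bases before it, and in Bst2 2 overlapping copies begin 130 and 124 bases before it. Slfn5 and Trim30a each hold 1 copy, at 155 and 36 bases. The RefSeq start of Slfn5 lies inside the GENCODE bounds of the gene given below.

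All 41 members were expressed in these tumours, the scarcest with 4366 counts over all libraries, and all passed the filter on low counts. Per kilobase of exon, the EV mean was highest for Ifitm3, a membrane protein that blocks virus entry (717 CPM per kb), Bst2, the tether that holds budding virus on the cell (333), Ifi27l2a (200), Lgals3bp, a secreted glycoprotein (179) and Isg15, the ubiquitin-like modifier (116). It was lowest for Herc6, a ligase for Isg15 (1.81 CPM per kb), Mx2 (2.09) and Ddx60 (2.67). The levels per kilobase thus spanned a wide range within both groups.

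Comparing p95HER2 with EV tumours asks how overexpression of p95HER2 changes gene expression, here of the interferon response. Of the 41 members, 7 were lower and 0 higher in p95HER2 tumours (edgeR quasi-likelihood test, Benjamini-Hochberg-adjusted p under 0.05 over 17123 genes). The share lower was 17.1% of the members, against 4.45% of all genes tested, and 5.73% of all genes were higher. DESeq2 called 10 members lower, against 6.59% of all genes, and 0 higher, against 7.24%. By edgeR 16 members were lower at an unadjusted p under 0.05, against 13.3% of all genes. A negative log2 fold change was found for 36 members, against 52.3% of all genes, and the median over the members was -0.27, against -0.01 over all genes. That median was -0.16 without EV 7 and lay between -0.32 and that value with any 1 tumour left out. Without EV 7 the number lower was 3, as it was without EV 4, 5, 6 or 9 or p95HER2 1, 2 or 4, and it was 4 without p95HER2 5 or 7. The share of all genes called in these fits was not taken, so a general loss of calls is not told apart. The 3 genes whose calls held in all 18 fits with 1 tumour left out were Ifi27l2a, Mx1 and Slfn5.

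**Figure D1:**
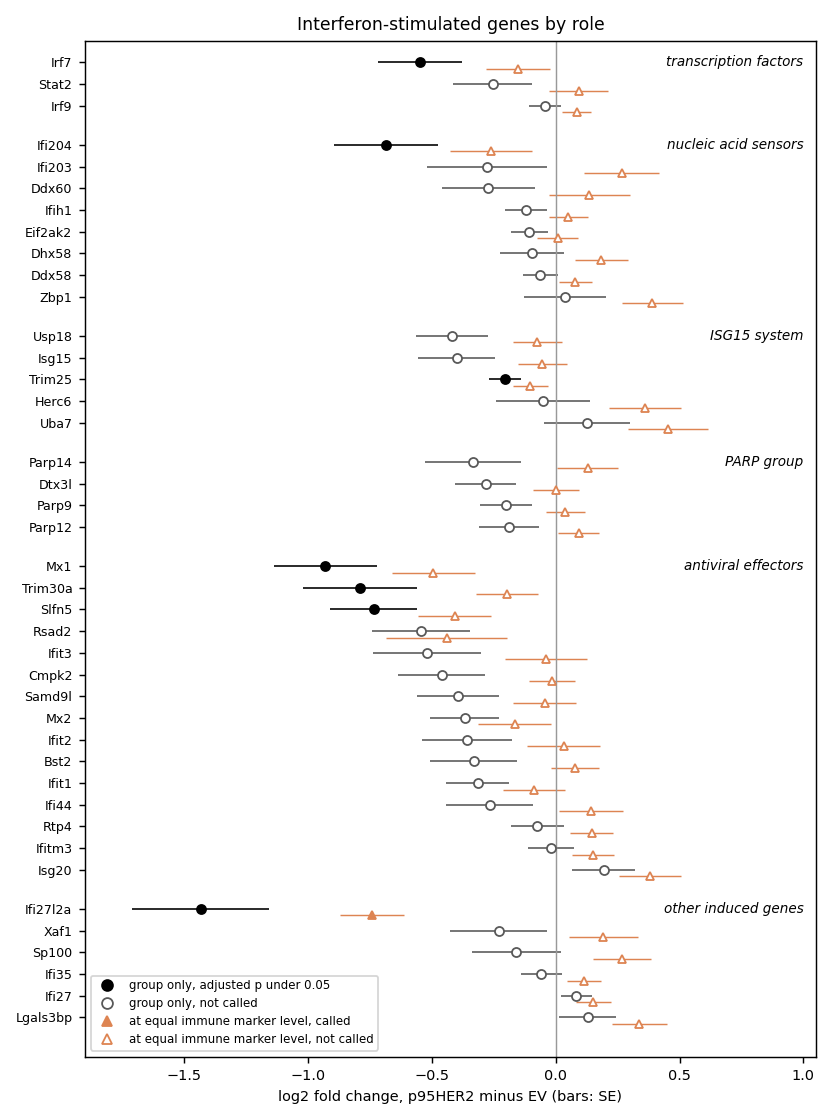
Log2 fold change of each of the 41 members, p95HER2 minus EV, grouped by role, with bars for the standard error (SE). Circles are from the fit with group alone (filled: the 7 genes called) and triangles from the fit that also holds the immune marker level (filled: the 1 gene called, Ifi27l2a).

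The largest fall was that of Ifi27l2a, a small hydrophobic protein strongly induced by interferon (ENSMUSG00000079017, chromosome 12, 103442167 to 103443680, minus strand, mm10). EV tumours held 45.4 CPM at the lowest, 96.1 at the median and 150 at the highest, and p95HER2 tumours 16.2, 39.1 and 47.6 CPM. The groups overlapped only in that 1 p95HER2 tumour lay above the lowest EV tumour, and all 8 p95HER2 tumours lay below the EV median. The log2 fold change was -1.43 (SE 0.28, edgeR adjusted p = 0.00412). Its neighbour and relative Ifi27, on the opposite strand of the same region, had 90.9 ± 7.76 CPM in EV (SD, n = 10) and 96.3 ± 10.5 CPM in p95HER2 tumours (SD, n = 8; log2 fold change 0.08, edgeR adjusted p = 0.429). Reads shared between members of this gene family are uncertain.

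Among the antiviral effectors, proteins that block virus entry, replication or release, 3 of 15 members were lower, against 4.45% of all genes. A negative log2 fold change was found for 14 of 15, against 52.3% of all genes. Mx1, a dynamin-like GTPase that traps viral nucleoproteins (chromosome 16, 97447035 to 97462907, minus strand), ran from 11.8 through a median of 15.6 to 35.7 CPM in EV tumours and from 6.31 through 9.70 to 14.1 CPM in p95HER2 tumours. The highest EV value was that of EV 7, and the log2 fold change was -0.93 (SE 0.21, edgeR adjusted p = 0.00848). Slfn5, a Schlafen family protein (chromosome 11, 82951349 to 82964840, plus strand), ran from 18.9 through 34.5 to 45.3 CPM in EV and from 12.3 through 20 to 28.2 CPM in p95HER2 tumours. Its log2 fold change was -0.74 (SE 0.17, edgeR adjusted p = 0.0127), and its exons share 559 bases with Slfn5os on the opposite strand, so part of its counts is uncertain. Trim30a, a tripartite-motif regulator of innate signalling (chromosome 7, 104409025 to 104465193, minus strand), ran from 18.5 through 31.8 to 58.7 CPM in EV and from 10.8 through 21.8 to 24.7 CPM in p95HER2 tumours. It fell by 0.79 on the log2 scale (SE 0.23, edgeR adjusted p = 0.0360). That call ended without any of EV 4, 5, 6, 7 or 9 or p95HER2 1, 2 or 4 (edgeR adjusted p up to 0.0729). For all 3 genes every p95HER2 tumour lay below the EV median, while the ranges overlapped.

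Of the 12 effectors that did not pass, all but Isg20 had a negative log2 fold change. Rsad2, which encodes viperin, an enzyme that makes a chain-terminating nucleotide, ran from 15.2 through 28.2 to 52.2 CPM in EV and from 13.2 through 19.9 to 29.8 CPM with p95HER2 (log2 fold change -0.54, edgeR adjusted p = 0.0899). It was called without EV 3 or without p95HER2 8 (edgeR adjusted p as low as 0.0338). Cmpk2, its neighbour on chromosome 12 and a nucleotide kinase, ran from 29.0 through 41.3 to 73.4 CPM in EV and from 20.1 through 34.2 to 39.1 CPM with p95HER2 (log2 fold change -0.46, edgeR adjusted p = 0.102). Both genes had their highest EV level in EV 7.

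The Ifit genes, a chromosome 19 cluster whose proteins bind foreign RNA, had log2 fold changes of -0.32 for Ifit1, -0.36 for Ifit2 and -0.52 for Ifit3 (edgeR adjusted p = 0.124, 0.220 and 0.139). Ifit2 ran from 45.4 through 52.2 to 126 CPM in EV tumours, the next value below that of EV 7 being 68.7, and from 36.2 through 48.9 to 55.5 CPM in p95HER2 tumours. Ifit3 ran from 32.5 through 51.5 to 119 CPM in EV and from 28.2 through 41.03 to 50.8 CPM in p95HER2 tumours. EV 7 was thus far above the other tumours in both genes, and without it the log2 fold changes were -0.18 for Ifit2 and -0.34 for Ifit3 (edgeR adjusted p = 0.309 and 0.213). Samd9l, a restriction factor of poxviruses, ran from 46.5 through 63.8 to 95.1 CPM in EV and from 33.6 through 52.6 to 64.9 CPM with p95HER2 (log2 fold change -0.39, edgeR adjusted p = 0.134). Mx2, annotated as a polymorphic pseudogene in the mouse, ran from 5.35 through 7.48 to 10.5 CPM in EV and from 4.53 through 5.88 to 7.23 CPM with p95HER2 (log2 fold change -0.37, edgeR adjusted p = 0.0954). Bst2 had a log2 fold change of -0.33, Ifi44 of -0.27, Rtp4 of -0.07 and Ifitm3 of -0.02, and Isg20, an exonuclease, was the 1 effector with a positive value, 0.19 (edgeR adjusted p from 0.244 to 0.927 for these 5).

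**Figure D2:**
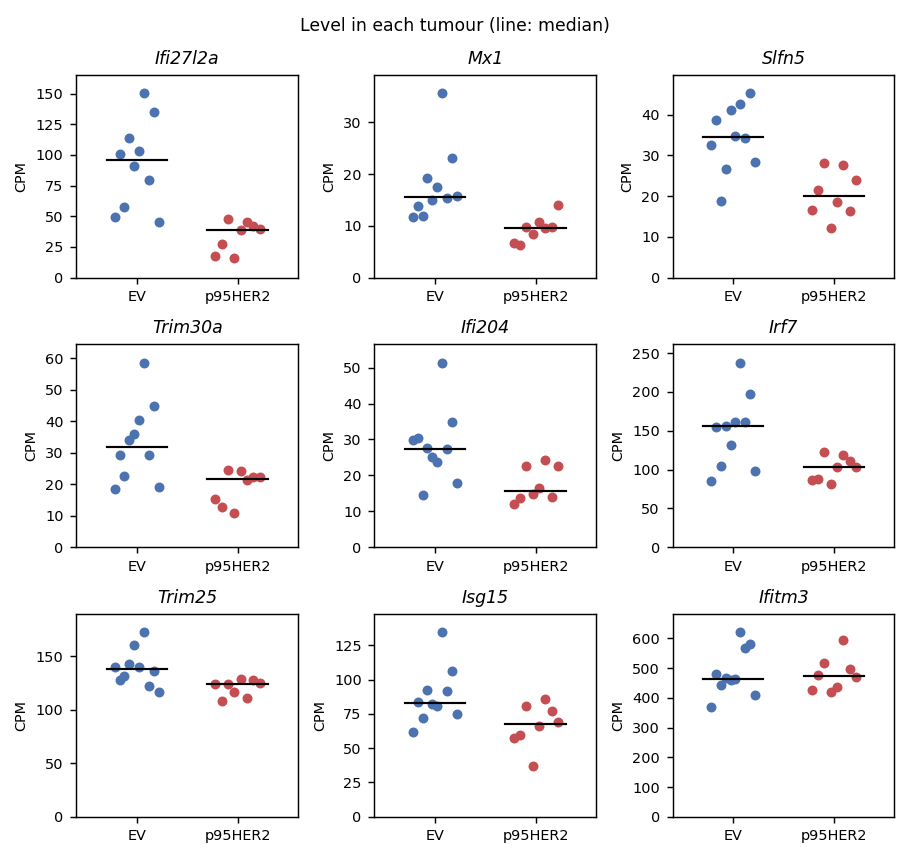
Level in CPM of 9 members in each of the 10 EV and 8 p95HER2 tumours, with a line at the group median. The 7 genes called lower are joined by Isg15 and Ifitm3, which did not pass, and the ranges of the groups overlap in each panel.

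Of the 3 transcription factors 1, Irf7, was lower, against 4.45% of all genes. Irf7 (chromosome 7, 141262706 to 141266481, minus strand), which drives the later wave of interferon production, ran from 85.6 through 156 to 238 CPM in EV and from 81.8 through 104 to 123 CPM in p95HER2 tumours. The upper EV values were far above the highest p95HER2 tumour, while the lowest tumours of both groups lay close together. Its log2 fold change was -0.55 (SE 0.17, edgeR adjusted p = 0.0489), a call that held only when EV 1, EV 3 or EV 10 was the tumour left out (edgeR adjusted p up to 0.0950). Stat2 had a log2 fold change of -0.26 (edgeR adjusted p = 0.332) and Irf9, its DNA-binding partner, of -0.04 (edgeR adjusted p = 0.721).

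Of the 8 nucleic acid sensors 1, Ifi204, was lower, against 4.45% of all genes. Ifi204, a DNA-binding member of the p200 family (chromosome 1, 173747293 to 173766943, minus strand), ran from 14.5 through 27.4 to 51.4 CPM in EV and from 11.9 through 15.6 to 24.4 CPM in p95HER2 tumours. It fell by 0.68 on the log2 scale (SE 0.21, edgeR adjusted p = 0.0453), and leaving out any of 13 tumours ended the call (edgeR adjusted p up to 0.0901). The cytosolic RNA sensors showed small differences. Ddx58, which encodes RIG-I, had 98.1 ± 12.8 CPM in EV (SD, n = 10) and 94.0 ± 7.74 CPM in p95HER2 tumours (SD, n = 8), a log2 fold change of -0.06 (SE 0.07, edgeR adjusted p = 0.625). Ifih1, which encodes MDA5, had -0.12, the helicase Dhx58 -0.10, the RNA-activated kinase Eif2ak2 -0.11, Ddx60 -0.27, Ifi203 -0.28 and the Z-nucleic-acid sensor Zbp1 0.04 on the same scale (edgeR adjusted p from 0.381 to 0.919).

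In the Isg15 conjugation system, which attaches Isg15 to proteins and removes it, 1 of 5 members was lower, against 4.45% of all genes. That was Trim25, a ligase that acts on RIG-I (chromosome 11, 88999376 to 89020293, plus strand), which ran from 117 through 138 to 173 CPM in EV and from 108 through 124 to 129 CPM in p95HER2 tumours. It fell by 0.20 on the log2 scale (SE 0.06, edgeR adjusted p = 0.0490), and the call ended in 14 of 18 fits with 1 tumour left out (edgeR adjusted p up to 0.104) and under RLE scaling (edgeR adjusted p = 0.0506) and voom (limma adjusted p = 0.0586). Isg15 itself ran from 61.9 through 83.0 to 135 CPM in EV and from 37.0 through 67.6 to 85.9 CPM with p95HER2 (log2 fold change -0.40, edgeR adjusted p = 0.107). Usp18, which strips Isg15 from proteins and damps the receptor, ran from 22.8 through 34.5 to 55.6 CPM in EV and from 18.7 through 27.7 to 32.7 CPM with p95HER2 (log2 fold change -0.42, edgeR adjusted p = 0.0717). DESeq2 called Isg15, Usp18 and Cmpk2 lower (DESeq2 adjusted p = 0.0418, 0.0255 and 0.0352), and voom called Isg15 (limma adjusted p = 0.0453). The activating enzyme Uba7 had a log2 fold change of 0.13 and Herc6 of -0.05 (edgeR adjusted p = 0.692 and 0.904).

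None of the 4 PARP group members, ADP-ribosyltransferases and the ligase Dtx3l, passed (0 of 4, all with an edgeR unadjusted p of at least 0.0327, against 10.2% of all genes called in either direction). Dtx3l had a log2 fold change of -0.28, Parp14 of -0.33, Parp9 of -0.20 and Parp12 of -0.19. Parp9 and Dtx3l are divergent neighbours whose exons share 458 bases on opposite strands, so their counts are in part uncertain. Of the remaining induced genes, Xaf1 had -0.23, Sp100 -0.16, Ifi35 -0.06 and Lgals3bp 0.13 on the log2 scale (edgeR adjusted p from 0.497 to 0.705).

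No member had groups that did not overlap in the direction of a fall, a pattern shown by 0.111% of all genes tested. For each of the 41 members the ratio of the highest to the lowest EV tumour was larger than the ratio of the group means. Extremes and means are unlike measures, and the share of all genes was not taken, so the count shows nothing particular to the members. That ratio within EV tumours had a median of 2.40 over the members and reached 3.67 for Ifit3, and within p95HER2 tumours the median was 1.75.

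The variation within groups was shared by the members. EV 7 was the highest EV tumour for 38 of 41 members, where it was the highest for 13.7% of all genes tested, and EV 9 was the highest for the other 3. EV 1 was the lowest EV tumour for 23 members, EV 10 for 10, EV 3 for 6 and EV 2 for 2. Among p95HER2 tumours, p95HER2 4 was the lowest for 28 members, against 18.8% of all genes, and p95HER2 2 for 10. The highest p95HER2 level was spread over 5 tumours, led by p95HER2 6 with 12 members.

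**Figure D3:**
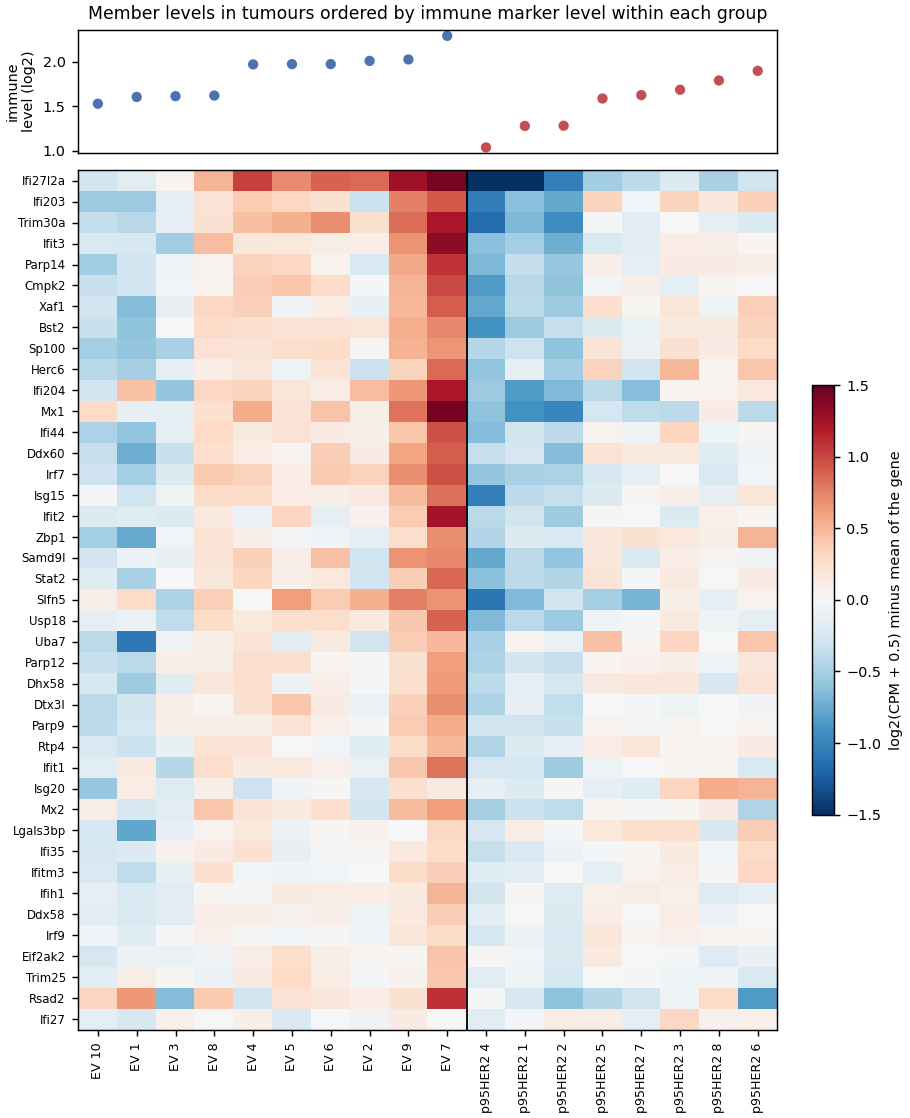
Levels of the 41 members, as log2(CPM + 0.5) minus the mean of the gene, in the 18 tumours ordered by immune marker level within each group (points above, log2 scale). Rows are ordered by the slope on that level, from 2.04 for Ifi27l2a to 0.20 for Ifi27, and EV 7 holds the highest EV value for 38 members and p95HER2 4 the lowest p95HER2 value for 28.

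Markers of immune cells differed between the groups as well. The immune marker level of a tumour was taken as the mean of its macrophage, T cell, B cell, neutrophil and dendritic cell levels, each the mean of log2(CPM + 0.5) over markers that include no member. It ran from 1.53 to 2.29 in EV and from 1.03 to 1.90 in p95HER2 tumours, a difference of -0.34 (two-sided exact permutation test, p = 0.0181), and its highest tumour was EV 7 and its lowest p95HER2 4. Without both of these the difference was -0.21 (exact permutation p = 0.0772). Of its 62 markers, all detected, 14 were lower and 2 higher by the edgeR test, and their summed level was 987 to 2337 CPM in EV and 623 to 1477 CPM in p95HER2 tumours. The macrophage level was lower by 0.60 (exact permutation test, adjusted p = 0.00880 over 11 lists), the T cell level by 0.78 (exact permutation, adjusted p = 0.0408), and the neutrophil level was higher by 0.28 (exact permutation, adjusted p = 0.0419). Of the 9 neutrophil markers 1 was higher, S100a8 (log2 fold change 0.90), against 5.73% of all genes. Another, Clec4d, was lower (-0.67), against 4.45% of all genes. Ly6g, Retnlg and Cxcr2, with 4, 58 and 101 counts over all libraries, did not pass the filter. The NK and cytotoxic cell, B cell, fibroblast and adipocyte levels were lower by 0.68, 0.37, 0.33 and 0.82 (exact permutation, adjusted p = 0.0216, 0.00905, 0.0435 and 0.00880), and the part of the fibroblast and adipocyte levels in the members' differences was not tested. In all, 7 of 11 lists differed, and 4 did without any of EV 4, 5, 6, 7 or 9 and 3 without p95HER2 4. In whole-tumour RNA, fewer cells of a type and less RNA per cell cannot be told apart. Whether any of the markers is itself induced by interferon was not tested.

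Each member was then related to the immune marker level across tumours in a fit that holds the group as well. The slope, in log2 units of the gene per log2 unit of the level, was positive and called for 34 of 41 members (82.9%), against 5.5% of all genes tested, and 0 members had a negative slope that was called, against 2.36% of all genes. Its median over the members was 1.004, against -0.01 over all genes, and all 41 values were above 0. Without EV 7 and p95HER2 4, a setting chosen after the data were seen, 16 members were called (3.01% of all genes in that fit) and 40 of 41 slopes were above 0, while leaving out 1 tumour at a time left 27 to 36.

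The steepest slopes were those of Ifi27l2a (2.04, SE 0.21, edgeR adjusted p = 5.7e-06), Ifi203 (1.69), Trim30a (1.68), Ifit3 (1.33), Parp14 (1.31), Cmpk2 (1.28, SE 0.15, edgeR adjusted p = 7.96e-06), Xaf1 (1.27) and Bst2 (1.26). The 7 members without a call were Rsad2, Mx2, Ifit1, Isg20, Ifi27, Trim25 and Eif2ak2. Rsad2 had a slope of 0.28 (SE 0.37, edgeR adjusted p = 0.742) and Ifi27 had 0.20 (edgeR adjusted p = 0.342). Trim25 and Eif2ak2 had 0.28 and 0.31 (edgeR adjusted p = 0.138 and 0.166).

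Within EV tumours alone 27 members had a positive slope that was called (2.98% of all genes), and within p95HER2 tumours 12 (2.8%). The medians of the slopes were 1.06 and 0.82. No gene in the table had slopes that differed between the groups (0 of 17123, edgeR adjusted p under 0.05), and 4 members differed at an unadjusted p under 0.05, against 9.09% of all genes. The calls within groups rest on the extreme tumours: without EV 7, 4 members were called within EV (1.17% of all genes, median slope 0.75, 40 of 41 above 0), and without p95HER2 4, 0 were called within p95HER2 (0.737% of all genes, median slope 0.74, 40 of 41 above 0). Within EV 16 were called without EV 10 (1.85% of all genes). Within p95HER2 6 were called without p95HER2 1 (1.66%), and 7 each without p95HER2 2 (2.58%) or 6 (1.22%).

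**Figure D4:**
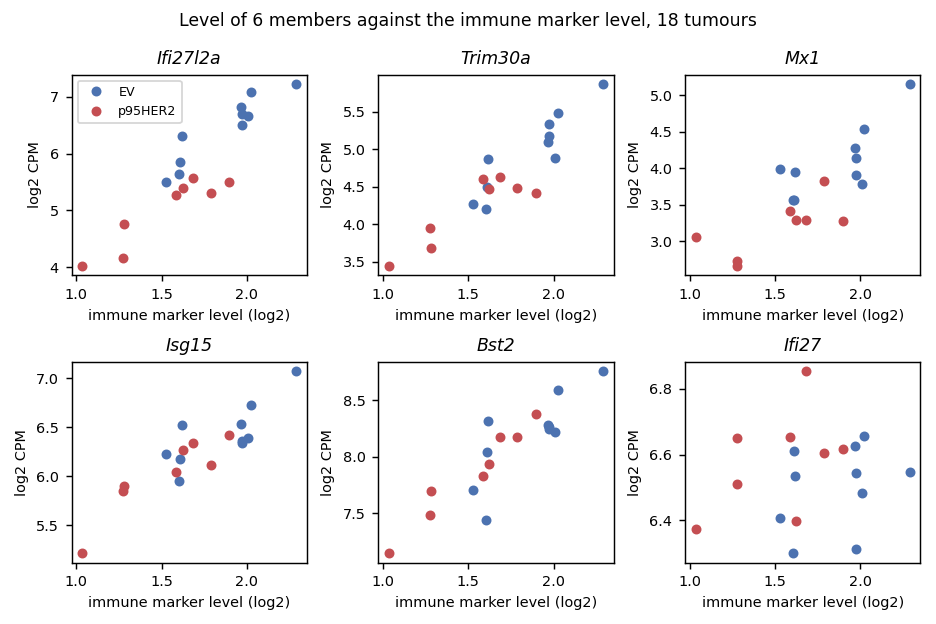
Level of 6 members (log2 CPM) against the immune marker level of the tumour (log2 scale) in 10 EV and 8 p95HER2 tumours. The slopes run from 2.04 for Ifi27l2a to 0.20 for Ifi27, whose slope was not called.

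With the immune marker level in the fit, 1 member was lower, against 0.788% of all genes tested, and 0 were higher, against 1.9%. The 1 was Ifi27l2a, at -0.74 (SE 0.13, edgeR adjusted p = 0.00382) in place of -1.43. Its call held without each of the 18 tumours in turn (log2 fold change from -0.81 to -0.65). All 7 called genes moved toward 0: Mx1 to -0.49, Slfn5 to -0.41, Ifi204 to -0.26, Trim30a to -0.20, Irf7 to -0.15 and Trim25 to -0.10 (edgeR adjusted p from 0.123 to 0.581). Mx1 was called as well when EV 7 and p95HER2 4 were left out, Zbp1 was higher without EV 8, and Lgals3bp was higher without p95HER2 8. Over all members 26 were above and 15 below 0 in this fit, with a median of 0.08. Over all genes 52.6% were below 0, and the median was -0.01. The sign of the members' median thus turned, but the members vary together and this change was not tested. This level is itself lower in p95HER2 tumours and contains different cell types, so the fit compares tumours of like marker level and does not separate sources.

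The choice of marker list altered which members were called. With the macrophage level in the fit 0 members were lower, against 0.199% of all genes, and Ifi27l2a had a log2 fold change of -0.62 (edgeR adjusted p = 0.256). None was higher either, against 0.835% of all genes. With the T cell level Ifi27l2a was again lower, at -0.76 (SE 0.15, edgeR adjusted p = 0.0117), against 1.1% of all genes, and 3 members were higher, against 2.29% of all genes: Uba7 at 0.56, Zbp1 at 0.43 and Lgals3bp at 0.39 (edgeR adjusted p = 0.0120, 0.0399 and 0.0284). None of these 3 was called in the fit with group alone. With the macrophage and T cell levels both in the fit, 0 members were higher, against 1.45% of all genes, and 0 lower, against 0.35%, and 33 of 41 values were above 0.

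Slopes on single lists, taken 1 at a time beside the group, gave different numbers of calls. On the T cell level 32 members had a positive slope that was called (5.45% of all genes), on the level of NK and cytotoxic cells 32 (5.16%), on the dendritic cell level 32 (4.52%), on the macrophage level 17 (3.47%) and on the B cell level 10 (2.68%). On the neutrophil level 0 members were called (0.479% of all genes), with 19 of 41 slopes above 0. On the fibroblast level 1 was called (1.51%), on the endothelial and adipocyte levels 0 each (0.683% and 0.0818%), and on the skeletal muscle level 2 (3.74%). On the epithelial level 0 were called positive (4.63% of all genes) and 4 negative (1.47%). Without EV 7 and p95HER2 4 the T cell and NK levels gave 23 calls each (3.44% and 3.34% of all genes), while the dendritic cell level gave 2 (0.898%), the macrophage level 3 (2.42%) and the B cell level 6 (1.38%). The lists differ in spread between tumours and in number of markers, and the difference between their counts was not tested.

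Macrophage and T cell levels were also put in 1 fit, an analysis added after the data were seen. The T cell slope was then called for 22 members (3.22% of all genes) and the macrophage slope for 4 (2.13%). Slfn5 and Ifi204 had macrophage slopes of 1.17 (SE 0.15, edgeR adjusted p = 7.23e-05) and 1.18 (SE 0.23, edgeR adjusted p = 0.00839), while neither had a T cell slope that was called (edgeR adjusted p = 0.764 and 0.997). Usp18 had a macrophage slope of 0.63 (edgeR adjusted p = 0.0191) and Ifi27l2a both, 0.76 for macrophages and 0.62 for T cells (edgeR adjusted p = 0.0367 and 0.000996). The members with only the T cell slope called, 21 in number, included Trim30a (0.59), Uba7 (0.55), Cmpk2 (0.48), Bst2 (0.42), Dtx3l (0.36) and Irf7 (0.37). Macrophage slopes of these named genes, in that order, were 0.48, -0.07, 0.27, 0.40, 0.05 and 0.36, none of them called. Their SE was larger for the macrophage slope, 0.19 against 0.10 for Irf7. Whether the macrophage and T cell slopes of a gene differ was not tested. Neither slope was called for 16 members, among them Mx1, Rsad2 and the 3 Ifit genes. Without EV 7 and p95HER2 4, 17 members had a T cell slope that was called (2.96% of all genes) and 3 a macrophage slope (2.3%), those of Slfn5, Ifi204 and Ifi27l2a.

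**Figure D5:**
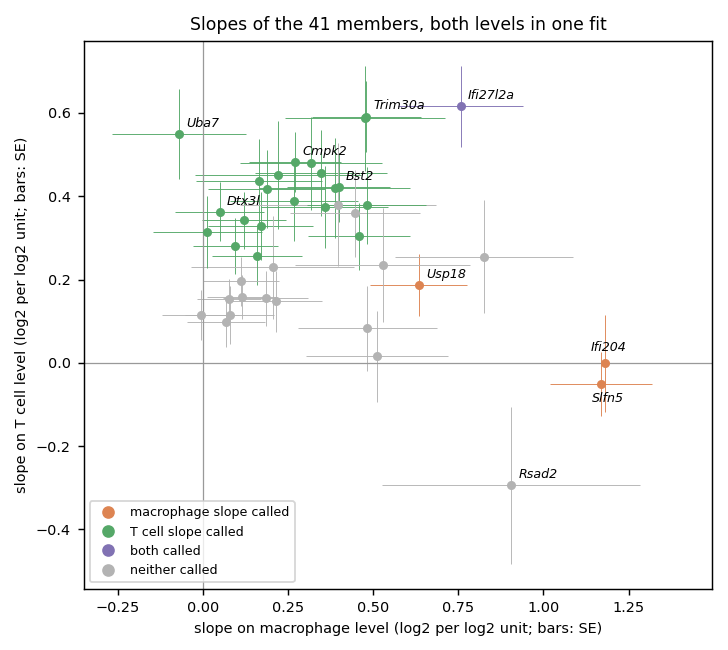
Slope of each of the 41 members on the macrophage level (x axis) and on the T cell level (y axis), both log2 units of the gene per log2 unit of the level, from 1 fit with the group, with bars for SE. The 21 genes called for T cells alone lie above 0 on the y axis, and Slfn5 and Ifi204 lie at the right near 0 on the T cell axis.

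The members lie on 15 chromosomes, and none lies on chromosome 5, which holds the Oas genes. Chromosomes 11 and 16 hold 6 each, and chromosomes 6, 7 and 12 hold 4 each. All 6 on chromosome 16 (Parp9, Dtx3l, Parp14, Mx1, Mx2 and Rtp4) had negative log2 fold changes with a median of -0.31, while the 406 other genes of that chromosome whose average log2 CPM reached 1 had a median of -0.04. On chromosome 12, Rsad2, Cmpk2 and Ifi27l2a were negative and Ifi27 was positive, with a median of -0.50 against -0.04 over 463 other genes. Of the 7 called genes, 2 lie on chromosome 7 (Irf7 and Trim30a), 2 on chromosome 11 (Slfn5 and Trim25) and 1 each on chromosomes 1, 12 and 16.

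Each member was set beside the other expressed genes of its 10 Mb window. The medians of these windows ran from -0.07 to 0.15 on the log2 scale, and 37 of 41 members, including all 7 called genes, had a log2 fold change below the median of their window. With medians this near 0, that count largely repeats the 36 negative log2 fold changes, and for the called genes it was fixed beforehand. The same share was not taken over all genes. After subtraction the median over the members was -0.25. For Mx1, in a window with a median of -0.04 over 56 genes, the difference from the window was -0.89, and for Ifi27l2a, in a window with a median of -0.07 over 57 genes, it was -1.36. Lgals3bp lies in the window with the highest median, 0.15 on chromosome 11, and its own log2 fold change was 0.13.

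Transcripts of the interferons themselves were close to undetectable. The 20 type I and III interferon genes examined had 103 counts in all over the 18 libraries, 11 of them had no count, no gene reached more than 8 counts in 1 library, and none passed the filter. A count of 0 in a library allows up to 3 counts, and a difference between groups was not tested at this depth. Ifnz held 56 of the 103 counts, at 0.070 ± 0.073 CPM in EV (SD, n = 10) and 0.111 ± 0.073 CPM in p95HER2 tumours (SD, n = 8). Ifnb1, the interferon made first after sensing, had 30 counts.

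The receptor chains and kinases gave no call (0 of 6, against 10.2% of all genes called in either direction). Tyk2 was at 34.6 ± 3.09 CPM in EV (SD, n = 10) and 31.7 ± 1.92 CPM in p95HER2 tumours (SD, n = 8; edgeR adjusted p = 0.148), and Ifnar2 at 35.9 ± 2.58 and 33.8 ± 2.64 CPM (edgeR adjusted p = 0.308). Of the transcription factors outside the member list, Stat3 had a log2 fold change of -0.10 and Irf1 of -0.11 (edgeR adjusted p = 0.576 and 0.652), and Irf8, a factor of myeloid and dendritic cells, of -0.63 (edgeR adjusted p = 0.112), so none of these 3 was called.

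Among upstream sensors and adaptors 4 of 17 tested genes were lower, against 4.45% of all genes, and 1 was higher, against 5.73%. Of the endosomal receptors for nucleic acids, Tlr3 had a log2 fold change of 0.03 (edgeR adjusted p = 0.853), and the other 3 were lower: Tlr7 at 4.92 ± 1.30 CPM in EV (SD, n = 10) and 2.89 ± 0.521 CPM in p95HER2 tumours (SD, n = 8; edgeR adjusted p = 0.00514), Tlr8 by 1.002 and Tlr9 by 0.93 on the log2 scale (edgeR adjusted p = 0.00781 and 0.0332). Irf5, a factor downstream of these receptors, fell by 0.59 (edgeR adjusted p = 0.0132). Tmem173, which encodes the DNA-signalling adaptor STING, rose by 0.19, from 64.6 ± 5.62 CPM in EV (SD, n = 10) to 73.5 ± 3.03 CPM in p95HER2 tumours (SD, n = 8; edgeR adjusted p = 0.0193), and it remained called at equal immune marker level (0.24, edgeR adjusted p = 0.0247). Ikbke, a kinase of the same pathway that was not called in the fit with group alone (0.15, edgeR adjusted p = 0.525), was higher at equal immune marker level (0.45, edgeR adjusted p = 0.0338). Macrophage and T cell levels were lower in the same tumours. At equal immune marker level Tlr7, Tlr8, Tlr9 and Irf5 had log2 fold changes of -0.55, -0.54, -0.35 and -0.26. None of these was called (edgeR adjusted p from 0.114 to 0.424), where 0.788% of all genes were lower. The slope on that level was positive and called for Tlr8, Tlr9 and Irf5 but not for Tlr7 (edgeR adjusted p = 0.254). The part of immune cells in these falls was not tested.

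Of 7 negative regulators 1 was lower, against 4.45% of all genes, and 0 were higher, against 5.73%. That was Ptpn11, which encodes the phosphatase SHP-2, lower by 0.37 on the log2 scale (SE 0.09, edgeR adjusted p = 0.0107). Ptpn6, the related phosphatase of blood cells, had -0.38 (edgeR adjusted p = 0.0669), and Irf2 had -0.19 (edgeR adjusted p = 0.116). Socs3 was at 143 ± 22.5 CPM in EV (SD, n = 10) and 143 ± 24.4 CPM in p95HER2 tumours (SD, n = 8).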

How the data were processed

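The deposited table holds unnormalised whole-number read counts for Ensembl genes in each tumour. STAR 2.5, HTSeq 0.6.1 and mm10 are named in the submitters' processing notes; no source used here gives the strand option or annotation release. Per the labels' protocols, libraries were directional and enriched for mRNA.

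Symbols were found for 54409 of 54532 identifiers, and coordinates, 1-based, are from GENCODE M21. Tests used edgeR 4.0.16 in R 4.3.3: filterByExpr (minimum count 10, minimum total 15), TMM scaling and a robust quasi-likelihood test over all 18 tumours, with Benjamini-Hochberg adjustment over 17123 genes and calls at 0.05. Log2 fold changes are p95HER2 minus EV, SE was taken from the F statistic, and CPM used TMM-scaled totals. For the levels of 11 marker lists an exact permutation test, two-sided, over 43758 assignments was used. The fits were tested on simulated data. No pair of libraries agreed within sampling noise (lowest chi-square per degree of freedom 9.03), and replicates were numbered in accession order.

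The members and all gene lists were chosen with earlier results of these data known. Low, median and high values are given for called members and the 8 uncalled members of largest log2 fold change. Alternatives were RLE scaling, library totals, other filters, DESeq2 1.42.0, limma 3.58.1 with voom and quality weights, marker levels as covariates and each tumour left out. Added after the data were seen were EV 7 and p95HER2 4 left out together, thinned libraries, and slopes on each list. A gene of the pathway lists is not reported here.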

Additional observations from a re-analysis of the deposited data

Results flagged for a closer look

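In 12 of 106 groups of values examined (41 members and 12 marker levels in 2 genotypes) the highest or lowest tumour lay apart from the others by more than Dixon's 95% limit, where chance gives about 1 in 20. The members vary together and the immune marker level is a mean of other levels. The 106 groups are therefore not independent, and their number cannot be weighed against that rate. For 9 members the tumour was EV 7, the highest EV tumour. Ifit2 was at 125.5 CPM there, against 68.7 CPM in the next tumour, and Ifih1 at 109.2 against 84.8 CPM. Ifit3 was at 119.3 CPM and Mx1 at 35.7 CPM. Stat2 was at 150.4, Usp18 at 55.6, Cmpk2 at 73.4, Ifi44 at 117.9 and Herc6 at 29.1 CPM in the same tumour.

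Of the marker levels, EV 1 had the highest epithelial level of the EV tumours, 7.40, and a skeletal muscle level of 3.02 where the next tumour had 6.86. EV 4 had the lowest endothelial level, 3.13.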

How the results depend on the processing

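The number of members lower in p95HER2 tumours was 7, and it was 6 with RLE scaling, 7 with library totals, with a filter at 1 CPM, with voom and with thinned libraries, and 10 with DESeq2. The 7 with voom lacked Trim25 and held Isg15. It was 4 without a filter and with the skeletal muscle level as covariate, 6 with the epithelial level, 1 with the immune marker or T cell level, and 0 with the macrophage level. Leaving out 1 tumour gave 3 to 10, and leaving out EV 7 and p95HER2 4 gave 3. Beside the main fit, the share of all genes called was taken only for DESeq2 and the immune marker, T cell and macrophage levels. The number higher was 0 in each of these settings except with the T cell level, where it was 3. Pathway genes called numbered 6, and 2 (not all of them among the 6) with the immune marker level, 2 with the T cell level and 0 with the macrophage level. The median log2 fold change of the members turned from -0.27 to 0.0785, 0.0920 and 0.117 with the immune marker, T cell and macrophage levels. Members with a positive log2 fold change numbered 5, and 26 with the immune marker level. Of the 15 members given with low, median and high values, Cmpk2 (0.0234), Ifi204 (0.0483), Ifit2 (0.16), Ifit3 (0.20), Isg15 (0.0536), Samd9l (0.0148) and Usp18 (0.10) turned positive with the macrophage level, and Ifit2 (0.0322) with the immune marker level. Members called along the immune level numbered 34, and 17 with the macrophage level alone, 27 to 36 with 1 tumour left out, and 16 without EV 7 and p95HER2 4. Marker lists that differed numbered 7, 3 to 8 with 1 tumour left out, and 3 without both tumours. The cause of these changes was not tested. Library totals followed genotype, and their part beyond the thinned fit cannot be told apart from p95HER2. No paired analysis was possible because the labels give no replicate numbers shared by the groups.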
